A study of Homo sapiens with 6 samples.

Results

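The epithelial junction and identity genes examined here are 43 genes that encode junction proteins, epithelial transcription factors, splicing regulators and polarity or trafficking proteins. They were found by their symbols in the gene lists of 6 QuantSeq libraries, with the counts of a repeated symbol summed, and make up 43 of 24462 symbols. All 6 libraries come from MDA-MB-231, a triple-negative breast cancer cell line of the claudin-low subtype, harvested 48 h after transfection. Of the 3 groups, each with 2 libraries, the first received the NC mimic, a non-specific control miRNA, and the second received the miR-200a mimic at 100 nM. The third received the miR-200a mimic at 100 nM together with 30 ng of an ELK3 plasmid, which the sample labels call pcDNA3.1 Hygro(+)-ELK3 and the protocol calls pcDNA3.1-Flag-ELK3. The plasmid carries the ELK3 coding sequence but not the 3′UTR. Whether the first and second groups received an empty vector is not stated, and no library of ELK3 plasmid with NC mimic is among the samples, so an effect of ELK3 and an effect of the added plasmid cannot be told apart. Each group is 1 cell line transfected transiently, and nothing states that its 2 libraries came from separate cultures, so p-values measure the spread between these libraries, which may be technical.

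Epithelial cells hold to each other through adherens junctions built on E-cadherin, tight junctions built on claudins and related membrane proteins, and desmosomes built on desmosomal cadherins, plakophilins and plakins. Carcinoma cells that pass through an epithelial to mesenchymal transition lose many of these proteins, and repressors of the ZEB and SNAI families bind E-box letters in the promoters of epithelial genes. The miR-200 family, to which miR-200a belongs, lowers ZEB1 and ZEB2 and is known as a guardian of the epithelial state. ELK3 is an ETS family factor that mostly acts as a repressor.

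The mimic pairs with its targets mainly through the seed, bases 2 to 8 of the miRNA, which is shown in capitals in the mature sequence from RefSeq (GRCh38.p14, chromosome 1, 1167916 to 1167937, plus strand).
hsa-miR-200a-3p: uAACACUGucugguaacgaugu
The letters that pair with this seed, CAGTGTT, stood in the annotated 3′UTR (GENCODE release 29, 1 transcript a gene) of 7 of the 43 genes, ESRP1, GRHL2, MPZL2, TJP1, PKP1, PKP2 and CDS1. Among the 30 that had enough counts to be tested, 4 held a match (13.3%), against 19.6% of the 11257 tested genes with an annotated 3′UTR. These 4 sites are shown with their neighbouring bases because they are the places in the tested members where the mimic could pair directly, with the match in capitals.
MPZL2: gacactacttaCAGTGTTatgacttgtata
TJP1: gaatatataacCAGTGTTgtggatttaaca
PKP2: gtattgttctgCAGTGTTgaaacagaatgg
CDS1: caaaaattgccCAGTGTTcctagttaaatg
In MPZL2 the match lies at bases 298 to 304 of a 3′UTR of 1843 nt and is followed by an A, which was so in none of the other 3 sites. CDH1 held no match in its 3′UTR of 2049 nt.

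RefSeq promoter windows, which run from 250 bases before to 50 bases after a transcription start, were matched for 25 of the 43 genes (36 windows, GRCh38.p14). The E-box was searched as CAGGTG, which on the other strand reads CACCTG. It was found in 18 of the 36 windows (50%), against 20.6% of all 35116 windows and 18.5% of the 13730 windows of tested genes. At least 2 copies stood in 11 member windows (30.6%), against 3.49% of all windows. By gene, 16 of 25 members (64%) had an E-box in some window, against 24.1% of 27305 genes. The ETS core, searched as CCGGAA and as TTCCGG on the other strand, was in 2 of the 36 windows (5.56%), against 17.2% of all windows and 27% of the windows of tested genes. Letters in a window are a description and not evidence that a factor binds there. The 250 bases before the start are shown for ELF3, CLDN7 and JUP, because the 3 genes were lower in the libraries labelled with ELK3 than with miR-200a and the windows hold E-boxes, in capitals, on either strand. They were chosen after their values and windows were seen. Of the 12 members called lower there, 7 had a window, and 4 of the 7 (ELF3, CLDN7, JUP and DSC2) held an E-box in one, while EHF, CLDN1 and CLDN12 held none.
ELF3 (chr1:202010337-202010586, plus strand): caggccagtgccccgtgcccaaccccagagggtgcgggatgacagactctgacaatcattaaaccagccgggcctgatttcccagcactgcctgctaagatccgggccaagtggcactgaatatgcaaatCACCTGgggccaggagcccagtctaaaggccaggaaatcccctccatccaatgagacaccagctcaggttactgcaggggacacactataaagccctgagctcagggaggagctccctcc
CLDN7 (chr17:7262479-7262728, minus strand): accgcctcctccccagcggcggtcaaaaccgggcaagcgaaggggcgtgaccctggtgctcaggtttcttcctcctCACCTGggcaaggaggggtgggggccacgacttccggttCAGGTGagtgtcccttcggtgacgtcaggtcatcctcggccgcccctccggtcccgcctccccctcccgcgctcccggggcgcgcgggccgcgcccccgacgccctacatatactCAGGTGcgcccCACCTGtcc
JUP (chr17:41785977-41786226, minus strand): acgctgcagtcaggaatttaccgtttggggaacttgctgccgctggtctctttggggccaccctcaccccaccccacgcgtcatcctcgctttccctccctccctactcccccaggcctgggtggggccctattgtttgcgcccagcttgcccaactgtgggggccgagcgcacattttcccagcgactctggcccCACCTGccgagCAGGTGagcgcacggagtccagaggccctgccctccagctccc
In this CLDN7 window the E-boxes start at positions -174, -135, -20, -9 and 5 from the transcription start. The same window holds 1 ETS core, and the other member window with an ETS core was that of CRB3, with 2. CLDN7 and JUP each have another RefSeq start, with no E-box in its window. The remaining windows with an E-box belonged to GRHL3, MUC1, RAB25, CDS1, OCLN, DSP, CLDN3, TJP1, DSC2, DSG2, TJP3, CRB3 and AP1M2.

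The libraries held 3055915 to 4868004 counts, and values are given as CPM, the counts scaled to a common library size by TMM. At these depths 3 counts, taken as the floor of detection, were 0.616 to 0.982 CPM, and floors and the counting intervals given with ratios of summed counts cover counting error only. The 95% intervals of log2 fold changes come from the edgeR fit and include the spread between libraries. ELK3 itself served as a check of the labels, with 138 and 166 CPM in the NC mimic libraries, 102 and 103 with miR-200a, and 96.2 and 79.2 in those labelled as given both. The count of ELK3 was not higher where the labels place the plasmid, and these libraries are called plus-ELK3-labelled throughout. In them ELK3 was lower than with the NC mimic (log2 fold change -0.79, adjusted p under 0.05 by edgeR). Against miR-200a its log2 fold change was -0.23, with an adjusted p not under 0.05. QuantSeq counts tags near the 3′ end of an RNA, and the transcript of the plasmid lacks the 3′UTR of the gene, so this count need not read the plasmid and does not settle the label. Other measurements of ELK3 in the study are not analysed here. VIM, CD44, AXL and CAV1, markers of the claudin-low state, summed to 3855 to 4142 CPM under the NC mimic, 3846 to 4035 under miR-200a and 2620 to 3457 in the plus-ELK3-labelled libraries. Of 12 luminal markers, ESR1, TFF3, AGR2 and AGR3 had no count in any library, and the sum of the list was 220 to 225, 235 to 237 and 136 to 158 CPM in the same order. VIM differed between the replicates of the plus-ELK3-labelled group, with 1854 and 956 CPM. The median absolute log2 difference between replicates, over the 30 tested members, was 0.32 under the NC mimic, 0.17 under miR-200a and 0.36 in the plus-ELK3-labelled group, against 0.18, 0.15 and 0.32 over all 12650 tested genes.

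Of the 30 tested members, 26 had a fitted log2 fold change above 0 for miR-200a relative to the NC mimic, and 25 had one below 0 for the plus-ELK3-labelled libraries against miR-200a. The median log2 fold change of the 30 tested members was 0.44 for miR-200a relative to the NC mimic, beside -0.02 over all 12650 tested genes. For the plus-ELK3-labelled libraries against miR-200a it was -0.71, beside 0.02, and for the same libraries against the NC mimic it was 0.03, beside 0.01. In these bulk libraries fewer cells that express a gene and less of its RNA in each cell cannot be told apart. The 3 comparisons share libraries, so a rise in the first and a fall in the second are not independent. The filter on low counts kept some members through particular groups, so counts over the 30 partly follow from it. CDH1 and CDH3 passed through the miR-200a libraries alone, MAL2 through both groups with the mimic, CGN, PPL and ERBB3 through the NC mimic and miR-200a, and MARVELD2 through single libraries. In the other 23, which had enough counts in each group, 20 had a log2 fold change above 0 in the first comparison and 19 had one below 0 in the second, with medians of 0.42, -0.39 and 0.04 in the 3 comparisons.

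**Figure D1:**
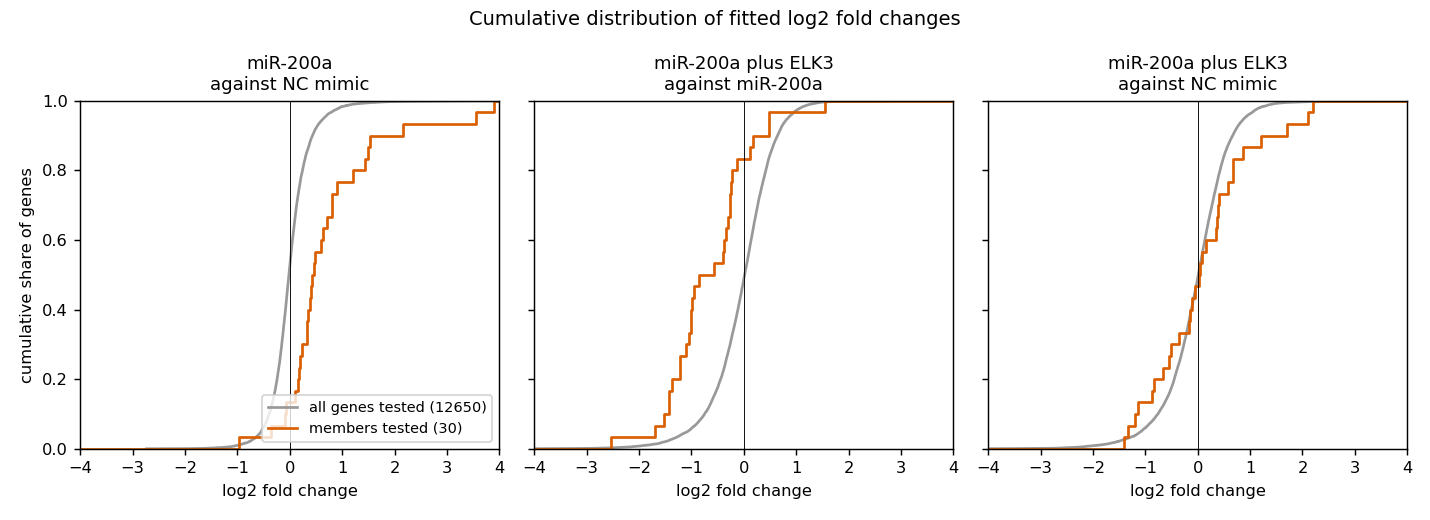
Cumulative share of genes (y axis) by fitted log2 fold change (x axis) in each of the 3 comparisons, for the 30 tested members (orange) and all 12650 tested genes (grey). The members lie to the right of all genes for miR-200a relative to the NC mimic (median 0.44 against -0.02), to the left for miR-200a plus ELK3 against miR-200a (-0.71 against 0.02), and near them in the last panel.

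A call was an adjusted p under 0.05 by edgeR's quasi-likelihood test. Between miR-200a and the NC mimic, MPZL2, PKP3 and MAL2 rose and no member fell, 3 of 30 beside 0.213% of all tested genes called higher and 0.0553% called lower. In this comparison, 19 of the 30 members had both miR-200a libraries above both NC mimic libraries, beside 22.9% of all tested genes, and 1 had both below, beside 26.1%. An unadjusted p under 0.05 was reached by 13 of 30, beside 9.24% of all. Of the 23 with enough counts in each group, 2 were called, 15 had both miR-200a libraries above and 11 had an unadjusted p under 0.05. Between the plus-ELK3-labelled libraries and those with miR-200a, 12 of 30 members fell, beside 5.91% of all tested genes, and none rose, beside 7.03%. The 12 were ELF3, EHF, F11R, MPZL2, CLDN1, CLDN7, CLDN12, DSC2, JUP, PPL, MAL2 and ERBB3. In the same comparison, 20 of 30 had both libraries below both miR-200a libraries, beside 28% of all, and 1 had both above, beside 30.2%. An unadjusted p under 0.05 was given by 18 of 30, beside 30.6%. Of the 23, the same comparison called 9 lower, put 14 with both libraries below and gave 12 an unadjusted p under 0.05. Against the NC mimic, the plus-ELK3-labelled libraries were higher in MPZL2, PKP3, LSR and MAL2, beside 6.92% of all tested genes called higher, and lower in CLDN1 and CLDN7, beside 5.95% called lower. Groups that did not overlap numbered 11 higher and 8 lower of 30, beside 29% and 27.6%, and 15 of 30 had an unadjusted p under 0.05, beside 30.6%. Among the 23, the calls were 3 higher and 2 lower, 9 stood higher and 5 lower without overlap, and 12 had an unadjusted p under 0.05.

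With 2 libraries a group, the calls depended on single libraries and on which libraries shared the estimate of spread. With only the NC mimic and miR-200a libraries in the model, 13 members rose and none fell (beside 4.77% and 3.12% of all tested genes), which adds CDH1, EPCAM, ELF3, EHF, F11R, CLDN4, CLDN12, LSR, DSP and DSG2 to the 3 above. Of these 13 rises, 11 were among the 23 members with enough counts in each group. The same model of 2 groups left CLDN7, F11R and MPZL2 as the falls between the plus-ELK3-labelled libraries and miR-200a (beside 2.27%). Against the NC mimic it left MPZL2 and PKP3 higher (beside 2.35%) and CLDN1 lower (beside 2.38%). Leaving out 1 library leaves a single library in a group. Without an NC mimic or miR-200a library fewer members were called in each comparison, and in each at least 1 such fit called none. Without a plus-ELK3-labelled library more were called, except without replicate 2 in the second comparison. Calls over all tested genes fell and rose in the same fits, and rose in that one too. In the second comparison without plus-ELK3-labelled replicate 1, not all calls were falls. In the third without a plus-ELK3-labelled library, the calls went in both directions. The counts of these fits are not read as a result about the members.

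**Figure D2:**
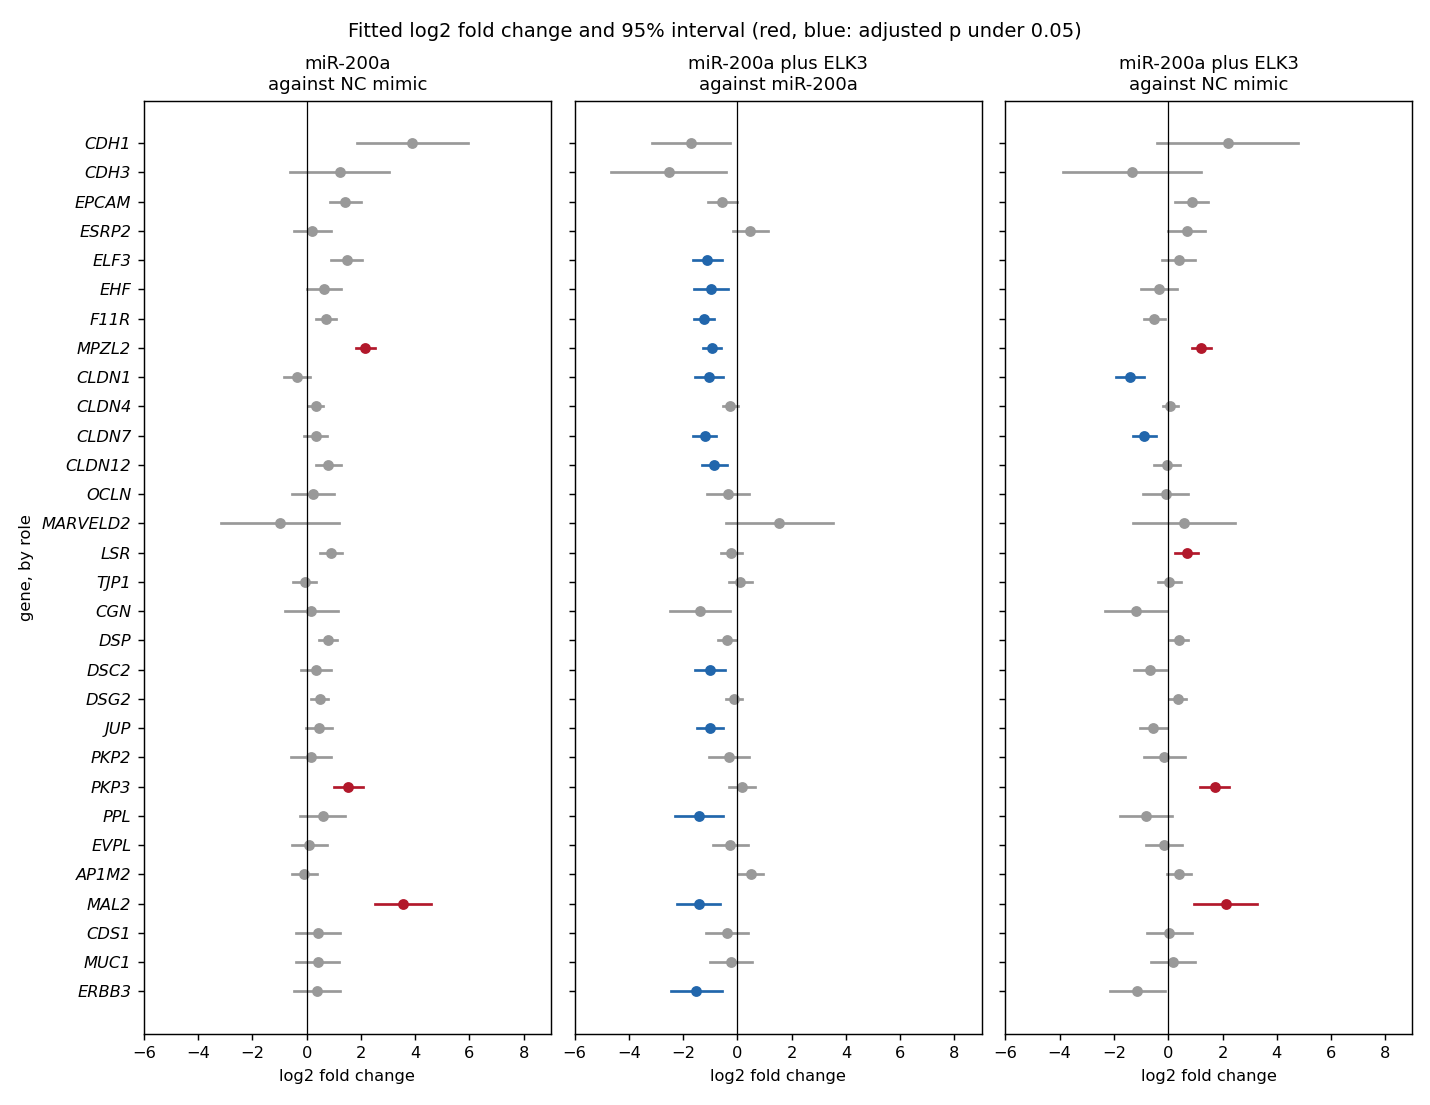
Fitted log2 fold change (points) with 95% interval (lines) of the 30 tested members, 1 panel for each comparison, with genes ordered by role. Red and blue mark an adjusted p under 0.05, which 3 members reached in the first panel (all higher), 12 in the second (all lower) and 6 in the third (4 higher and 2 lower).

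CDH1, the gene of E-cadherin, had 0 to 12 counts a library. Its counts were 1 and 0 under the NC mimic, 11 and 12 under miR-200a, and 3 and 3 in the plus-ELK3-labelled libraries. Both miR-200a libraries stood above all others, and the plus-ELK3-labelled group lay between. The ratio of summed counts, scaled by library size, was 17.9 for miR-200a over the NC mimic, with a 95% counting interval of 2.90 to 736. For miR-200a over the plus-ELK3-labelled libraries the ratio was 3.34 (1.32 to 10.0). CDH1 was not called in any comparison (adjusted p = 0.152, 0.108 and 0.233 by edgeR), and over the alternative settings its adjusted p for miR-200a relative to the NC mimic ran from 0.0189 to 0.254.

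The other adherens junction and adhesion genes, CDH3 and EPCAM, were not called either. EPCAM, a homophilic adhesion molecule of simple epithelia, had 8.69 and 13.1 CPM under the NC mimic, 29.1 and 28.5 under miR-200a, and 22.0 and 16.9 in the plus-ELK3-labelled libraries. The 3 groups did not overlap, in the order NC mimic, plus-ELK3-labelled, miR-200a. Its log2 fold change was 1.43 (standard error, SE, of 0.26, adjusted p = 0.0713) for miR-200a relative to the NC mimic, -0.56 (adjusted p = 0.147) for the plus-ELK3-labelled libraries against miR-200a and 0.87 (adjusted p = 0.0614) for them against the NC mimic. CDH3, the gene of P-cadherin, had 2 and 7 counts under the NC mimic, 17 and 11 under miR-200a, and 4 and 0 in the plus-ELK3-labelled group, and miR-200a stood above the plus-ELK3-labelled group by a ratio of 6.10 (2.13 to 23.9).

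Of the 7 epithelial transcription factors, only ELF3 and EHF, ETS factors of epithelial tissues, had enough counts to be tested, and both fell between miR-200a and the plus-ELK3-labelled libraries. ELF3 had 8.24 and 8.48 CPM under the NC mimic, 20.6 and 26.3 under miR-200a, and 10.4 and 11.3 in the plus-ELK3-labelled group. Both miR-200a libraries were above all 4 others. The log2 fold change of ELF3 was 1.49 (SE 0.26, adjusted p = 0.0557) for the mimic against its control, just short of a call, and -1.11 (SE 0.25, adjusted p = 0.0190) for the plus-ELK3-labelled libraries against miR-200a. Over the alternative settings these adjusted p ran from 5.17e-05 to 0.144 and from 0.00154 to 0.0579.

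EHF showed 13.6 and 21.5 CPM under the NC mimic, 28.7 and 25.3 under miR-200a, and 16.3 and 10.8 in the plus-ELK3-labelled libraries. The NC mimic and plus-ELK3-labelled groups overlapped, with miR-200a above both. EHF fell by 0.99 on the log2 scale (SE 0.28, adjusted p = 0.0469) between miR-200a and the plus-ELK3-labelled group, a call that 5 of 8 alternative settings and 2 of 6 fits without a library kept. The other factors were at or near 0. GRHL3 had no count in any library, GRHL2 and OVOL1 had 1 count in a single library each, and GRHL1 had 3 to 8 counts. OVOL2, a repressor that opposes the mesenchymal state, had 0 and 0 counts under the NC mimic, 4 and 4 under miR-200a, and 0 and 1 in the plus-ELK3-labelled group. With the mimic it was 2.07-fold above a floor of 3 counts over the NC mimic group. That value leaves out the counting error of the miR-200a counts and is not a lower bound.

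Of the splicing regulators of the epithelial state, ESRP2 was tested. It had 11.6 and 9.14 CPM under the NC mimic, 14.3 and 9.78 under miR-200a, and 14.2 and 19.3 in the plus-ELK3-labelled libraries, and was not called. Its last 500 nt overlap exons of AC020978.5 and, on the other strand, NFATC3. ESRP1 had 0 to 5 counts a library and was not tested.

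**Figure D3:**
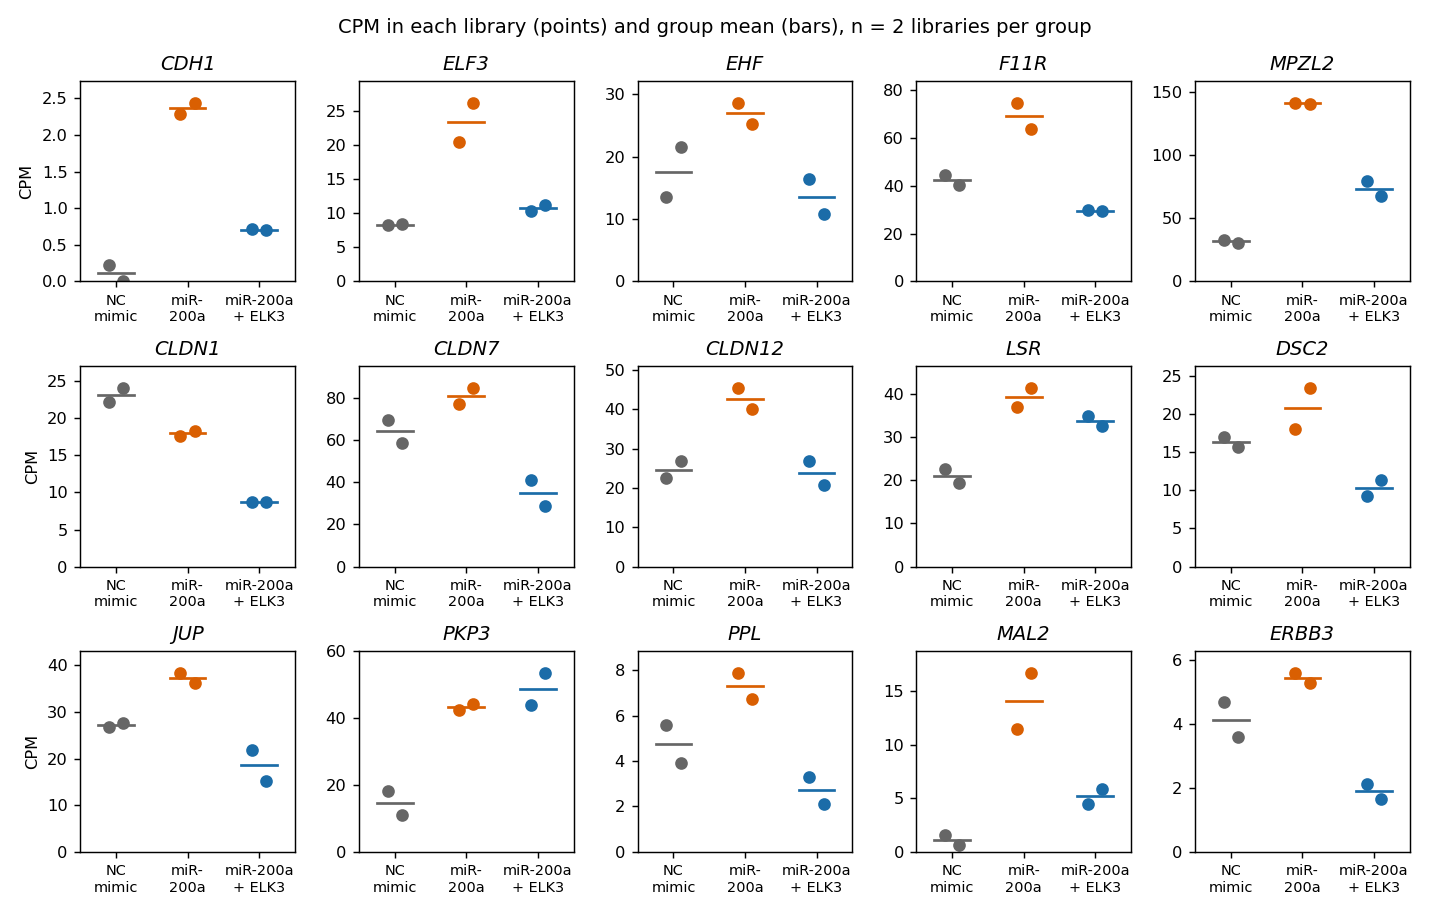
CPM (y axis, from 0) of CDH1 and of the 14 members called in at least 1 comparison, with 1 point for each library, a bar for the mean of each group, and 2 libraries a group. MPZL2 sits at 32.5 and 30.7 under the NC mimic, 141 and 141 under miR-200a, and 79.6 and 67.2 in the plus-ELK3-labelled libraries, while PKP3 is at 43.8 and 53.6 there and CLDN1 at 8.76 and 8.70.

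Of 11 tight junction membrane genes, 9 were tested. MPZL2 rose with miR-200a, and F11R, MPZL2, CLDN1, CLDN7 and CLDN12 fell between miR-200a and the plus-ELK3-labelled libraries. MPZL2, an immunoglobulin-domain adhesion protein of epithelial contacts (chromosome 11, 118253403 to 118264536, minus strand, GRCh38), had 32.5 and 30.7 CPM under the NC mimic, 141 and 141 under miR-200a, and 79.6 and 67.2 in the plus-ELK3-labelled group. The groups stood apart, with little spread inside each. MPZL2 rose 4.45-fold with miR-200a (log2 2.15, SE 0.16, adjusted p = 0.000582) and fell 1.92-fold from there in the plus-ELK3-labelled group (adjusted p = 0.00499), which left it 2.32-fold above the NC mimic (adjusted p = 0.00192). The rise was called in 8 of 8 alternative settings and in 4 of 6 fits without a library, and its adjusted p was 0.0742 and 0.0773 without NC mimic replicate 1 and 2. MPZL2 holds the seed match printed above, and it rose.

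F11R, the junctional adhesion molecule JAM-A, had 44.3 and 40.1 CPM under the NC mimic, 74.7 and 63.6 under miR-200a, and 29.8 and 29.4 in the plus-ELK3-labelled libraries. The plus-ELK3-labelled group was below both others. F11R fell 2.33-fold between miR-200a and the plus-ELK3-labelled group (log2 -1.22, SE 0.17, adjusted p = 0.00323), and this fall was called in 8 of 8 alternative settings and 4 of 6 fits without a library. The adjusted p was 0.0793 and 0.0521 without miR-200a replicate 1 and 2. Against the NC mimic its log2 fold change was 0.71 with miR-200a (adjusted p = 0.134) and -0.52 in the plus-ELK3-labelled group (adjusted p = 0.0764), neither called.

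Among the claudins, the strand-forming proteins of the tight junction, CLDN1 and CLDN7 were below the NC mimic in the plus-ELK3-labelled group and CLDN12 was not called there. CLDN1 had 22.3 and 24.1 CPM under the NC mimic, 17.6 and 18.3 under miR-200a, and 8.76 and 8.70 in the plus-ELK3-labelled libraries. It was the 1 member with both miR-200a libraries below both NC mimic libraries, at a log2 fold change of -0.36 that was not called (adjusted p = 0.686). CLDN1 fell 2.06-fold from miR-200a to the plus-ELK3-labelled group (adjusted p = 0.0208) and stood 2.65-fold below the NC mimic there (log2 -1.40, SE 0.24, adjusted p = 0.00633).

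CLDN7 had 69.5 and 58.7 CPM under the NC mimic, 76.8 and 84.8 under miR-200a, and 41.0 and 28.9 in the plus-ELK3-labelled libraries. All 4 other libraries were above the plus-ELK3-labelled group. CLDN7 fell 2.31-fold from miR-200a (log2 -1.21, SE 0.19, adjusted p = 0.00580) and was 1.84-fold below the NC mimic (adjusted p = 0.0191). Its last 500 nt overlap an exon of ELP5 on the other strand, and how strand was used in counting is not stated.

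CLDN12 had 22.5 and 26.8 CPM under the NC mimic, 45.5 and 39.9 under miR-200a, and 26.8 and 20.7 in the plus-ELK3-labelled libraries. Here the plus-ELK3-labelled group overlapped the NC mimic, and both were below miR-200a. The fall from miR-200a to the plus-ELK3-labelled group was 1.80-fold (log2 -0.85, SE 0.20, adjusted p = 0.0253), and the log2 fold change of 0.80 for miR-200a relative to the NC mimic was not called (adjusted p = 0.197). CLDN4 had 179 and 192 CPM under the NC mimic, 234 and 233 under miR-200a, and 208 and 182 in the plus-ELK3-labelled group. It was not called in any comparison, and its log2 fold change with miR-200a was 0.33 (SE 0.13, adjusted p = 0.458). CLDN3 had 0 to 7 counts a library and was not tested, so of the claudins whose low level names the subtype, CLDN3 was near 0 in these cells and CLDN4 and CLDN7 were not.

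LSR, a receptor of the tricellular tight junction, had 22.5 and 19.3 CPM under the NC mimic, 37.0 and 41.4 under miR-200a, and 34.8 and 32.4 in the plus-ELK3-labelled libraries. Both groups with the mimic were above the NC mimic. LSR was 1.60-fold higher in the plus-ELK3-labelled group than with the NC mimic (log2 0.68, SE 0.19, adjusted p = 0.0448), a call kept in 2 of 8 alternative settings and 2 of 6 fits without a library. The log2 fold change of 0.90 with miR-200a was not called (adjusted p = 0.105). OCLN, the gene of occludin, had 6.46 and 5.87 CPM under the NC mimic, 7.27 and 7.34 under miR-200a, and 4.26 and 7.29 in the plus-ELK3-labelled group. Its miR-200a libraries stood above both NC mimic libraries, but it was not called (log2 0.24, adjusted p = 0.907). MARVELD2, the tricellular protein tricellulin, had 3 to 10 counts in 5 libraries and 23 in replicate 2 of the plus-ELK3-labelled group. For the plus-ELK3-labelled libraries against miR-200a its log2 fold change was 1.55 (95% interval -0.44 to 3.54, adjusted p = 0.272 by edgeR), and the groups overlapped. By summed counts that ratio was 2.98 (95% counting interval 1.39 to 6.93). MARVELD3 had 0 to 2 counts.

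In the cytoplasmic plaque of the tight junction, no gene was called. TJP1, the scaffold ZO-1, had 43.4 to 58.3 CPM with all groups overlapping, and its 3′UTR holds a seed match. CGN, the gene of cingulin, had 17 and 8 counts under the NC mimic, 19 and 17 under miR-200a, and 7 and 5 in the plus-ELK3-labelled libraries. TJP3, the scaffold ZO-3, had too few counts for the test, with 6 and 2, 25 and 10, and 3 and 1 in the same order. By summed counts TJP3 was above the NC mimic with miR-200a by a ratio of 3.40 (95% counting interval 1.55 to 8.48), and higher than in the plus-ELK3-labelled group by 7.63 (2.73 to 29.5).

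Of 9 desmosomal and cornified envelope genes, 8 were tested. PKP3 rose with miR-200a, and DSC2, JUP and PPL fell from miR-200a to the plus-ELK3-labelled libraries. PKP3, a plakophilin of the desmosomal plaque (chromosome 11, 392614 to 404908, plus strand), had 18.0 and 11.1 CPM under the NC mimic, 42.4 and 44.2 under miR-200a, and 43.8 and 53.6 in the plus-ELK3-labelled group. Both groups with the mimic were above the NC mimic and overlapped each other. PKP3 rose 2.90-fold with miR-200a (log2 1.54, SE 0.24, adjusted p = 0.0343) and was 3.27-fold above the NC mimic in the plus-ELK3-labelled group (log2 1.71, adjusted p = 0.00262). Between the groups with the mimic its log2 fold change was 0.17, with a 95% interval of -0.30 to 0.64 (adjusted p = 0.625). The first call was kept in 6 of 8 alternative settings and 2 of 6 fits without a library, and the one against the NC mimic in the plus-ELK3-labelled group in 8 of 8 and 5 of 6.

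DSC2, a desmosomal cadherin, had 16.9 and 15.7 CPM under the NC mimic, 18.1 and 23.4 under miR-200a, and 9.24 and 11.3 in the plus-ELK3-labelled libraries. It fell 2.02-fold from miR-200a to the plus-ELK3-labelled group (adjusted p = 0.0288). JUP, plakoglobin, which links cadherins of both junction types to the cytoskeleton, had 26.7 and 27.7, 38.4 and 36.3, and 21.8 and 15.3 CPM in the same order. In both genes the plus-ELK3-labelled group was below all other libraries. JUP fell 2.01-fold (log2 -1.01, SE 0.21, adjusted p = 0.0166). PPL, the plakin periplakin, had 25 and 12, 38 and 33, and 14 and 9 counts. PPL fell 2.67-fold (adjusted p = 0.0439), a call kept in 2 of 6 alternative settings that gave an adjusted p.

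The other desmosomal genes were not called. DSP, the plakin desmoplakin, had 137 and 123 CPM under the NC mimic, 235 and 219 under miR-200a, and 153 and 194 in the plus-ELK3-labelled libraries. Its groups did not overlap, and its log2 fold change with miR-200a was 0.80 (SE 0.15, adjusted p = 0.0713), with 3 of 8 alternative settings calling it. DSG2, a desmosomal cadherin, had 94.2 and 94.6 CPM with the NC mimic and 110 to 137 in the other 4 libraries. PKP2 and EVPL, a plakophilin and the plakin envoplakin, overlapped in every comparison, at 7.99 to 15.5 and 12.4 to 20.7 CPM. PKP1 had no count in any library.

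**Figure D4:**
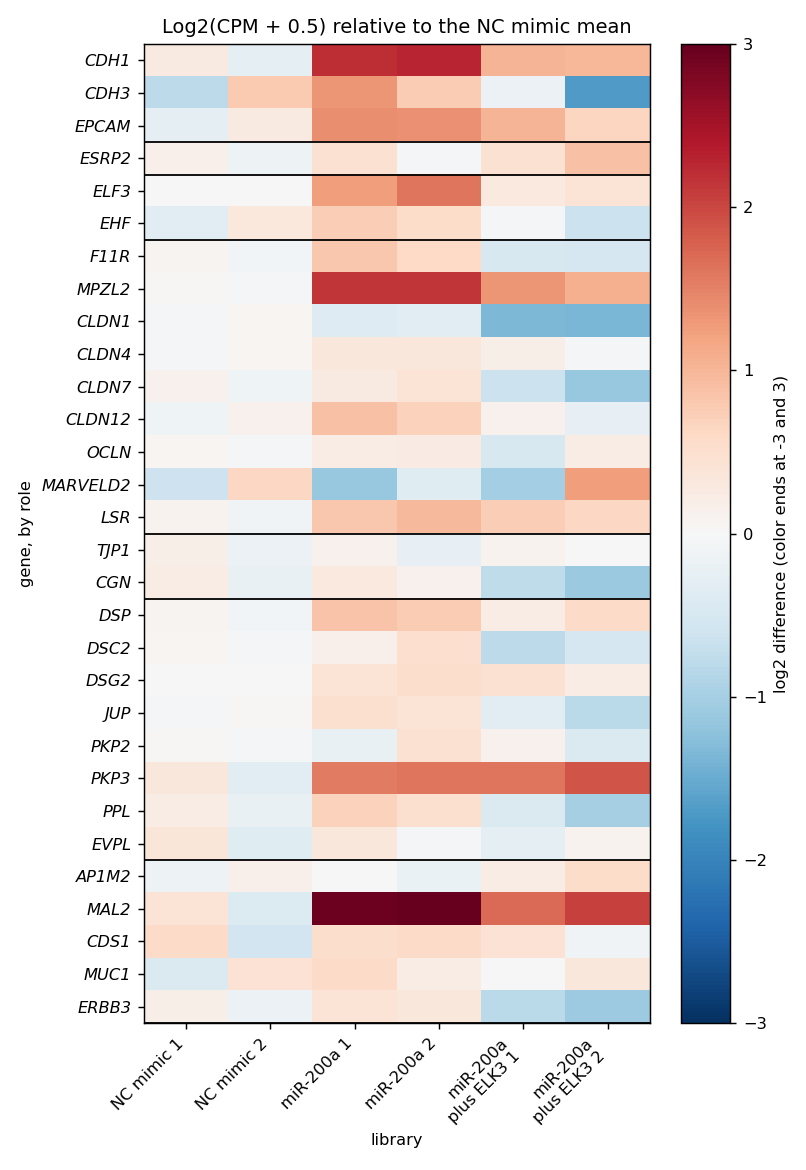
Difference of log2(CPM + 0.5) from the NC mimic mean for the 30 tested members (rows, by role) in each of the 6 libraries (columns), red for higher and blue for lower, with the color range ending at -3 and 3. The miR-200a columns are mostly red, with CLDN1 among the exceptions, and the columns of the plus-ELK3-labelled libraries mix red (MPZL2, PKP3, MAL2, LSR) with blue (CLDN1, CLDN7, ERBB3).

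Among the polarity, trafficking and signalling genes, MAL2 had the largest called change. MAL2, a membrane raft protein of transcytosis in polarized cells, had 7 and 2 counts under the NC mimic, 55 and 82 under miR-200a, and 19 and 25 in the plus-ELK3-labelled libraries. The 3 groups did not overlap. MAL2 rose 11.7-fold with miR-200a (log2 3.54, SE 0.46, 95% interval 2.52 to 4.57, adjusted p = 0.0185), fell 2.70-fold from there in the plus-ELK3-labelled group (adjusted p = 0.0277) and was 4.32-fold above the NC mimic there (adjusted p = 0.0287). The rise was called in 6 of 7 alternative settings and 2 of 6 fits without a library. Without NC mimic replicate 1 its log2 fold change was 4.37 with miR-200a (adjusted p = 0.394) and 2.94 in the plus-ELK3-labelled group against the NC mimic (adjusted p = 0.119), so both calls were lost while the values grew.

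ERBB3, a receptor of the EGF receptor family found in luminal epithelium, had 21 and 11 counts under the NC mimic, 27 and 26 under miR-200a, and 9 and 7 in the plus-ELK3-labelled libraries. It fell 2.86-fold from miR-200a to the plus-ELK3-labelled group (log2 -1.52, SE 0.43, adjusted p = 0.0439), which 2 of 6 alternative settings with an adjusted p kept. AP1M2, the epithelial subunit of a clathrin adaptor, was the one member whose plus-ELK3-labelled libraries stood above both miR-200a libraries, with 27.8 and 34.9 CPM under the NC mimic, 31.4 and 27.1 under miR-200a, and 36.2 and 45.6 in the plus-ELK3-labelled group. That difference was not called (log2 0.49, SE 0.20, adjusted p = 0.136). CDS1, which makes CDP-diacylglycerol, had 14.9 and 6.53 CPM under the NC mimic, 14.5 and 15.1 under miR-200a, and 13.5 and 9.17 in the plus-ELK3-labelled group. Its plus-ELK3-labelled libraries were below both miR-200a libraries (log2 -0.39, adjusted p = 0.498). MUC1, a mucin of the apical surface, had 5.57 to 11.6 CPM, and neither gene was called.

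Of the small GTPase RAB25 and the polarity genes CRB3 and LLGL2, none had enough counts to be tested. RAB25 and LLGL2 had 0 to 2 counts a library. CRB3 had 1 and 0 counts under the NC mimic, 3 and 2 under miR-200a, and 0 and 0 in the plus-ELK3-labelled libraries. In all, 13 of the 43 members were not tested, and at this depth a difference in GRHL2, GRHL3, OVOL1, MARVELD3, PKP1, RAB25 or LLGL2 was not detectable.

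Of 49 other junction and polarity genes, 26 were tested, and no gene was called between miR-200a and the NC mimic by edgeR, with 2 of 26 at an unadjusted p under 0.05, beside 9.24% of all. Between the plus-ELK3-labelled libraries and those with miR-200a, 1 of 26 was called higher and 2 lower, beside 7.03% and 5.91% of all tested genes. In the plus-ELK3-labelled libraries, CTNNB1 (beta-catenin) was lower than with miR-200a, at 393 and 357 against 501 and 500 CPM (log2 -0.42, adjusted p = 0.0397). PARD6B, a polarity scaffold, was lower at 82.2 and 82.3 against 124 and 124 CPM (log2 -0.59, adjusted p = 0.0256). PVRL1 (nectin-1) was higher at 55.7 and 52.2 against 35.5 and 37.7 CPM (log2 0.56, adjusted p = 0.0450). Against the NC mimic, only PKP4, a plakophilin relative, was called, 1 of 26 beside 6.92% of all called higher, at a log2 fold change of 0.52 (adjusted p = 0.0499). The median log2 fold change of these 26 was 0.05, -0.19 and -0.10 in the 3 comparisons.

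Other epithelial surface and trafficking genes were mostly undetected, with 9 of 25 tested. SPINT2, an inhibitor of membrane serine proteases, had 12.7 and 16.6 CPM under the NC mimic, 66.2 and 67.6 under miR-200a, and 26.8 and 15.7 in the plus-ELK3-labelled libraries. It rose with miR-200a (log2 2.21, adjusted p = 0.0107) and fell in the plus-ELK3-labelled group (log2 -1.65, adjusted p = 0.00412). GALNT3, which starts O-glycan chains, and KLF5, an epithelial transcription factor, fell from miR-200a to the plus-ELK3-labelled group (log2 -1.18 and -0.97, adjusted p = 0.0222 and 0.0137) and were below the NC mimic there (log2 -1.05 and -1.39, adjusted p = 0.0349 and 0.00270). The median log2 fold change of the 9 was 0.71, -0.97 and -0.33 in the 3 comparisons, and no gene of the list rose in the second comparison or the third.

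Of 13 repressors of epithelial genes, 5 were tested. In the plus-ELK3-labelled libraries 2 of 5, SNAI1 and SNAI2, were called lower than with miR-200a, beside 5.91% of all tested genes. Against the NC mimic 2 of 5 were called lower there, beside 5.95%. SNAI1 had 27.4 and 31.3 CPM under the NC mimic, 26.8 and 21.6 under miR-200a, and 10.9 and 4.70 in the plus-ELK3-labelled group. It was lower there than with miR-200a (log2 -1.63, adjusted p = 0.0145) and than with the NC mimic (log2 -1.91, adjusted p = 0.00748). SNAI2 had 49.0 and 49.9, 57.1 and 57.1, and 28.2 and 26.6 CPM, and fell by 1.06 on the log2 scale from miR-200a (adjusted p = 0.00446). Its plus-ELK3-labelled libraries also stood below both NC mimic libraries. ZEB1 had 129 and 112 CPM under the NC mimic, 94.5 and 83.3 under miR-200a, and 91.2 and 114 in the plus-ELK3-labelled group. The log2 fold change of ZEB1 with miR-200a was -0.44 (SE 0.16, adjusted p = 0.426) and that of ZEB2 was -0.85 (SE 0.35, adjusted p = 0.511), so neither was called.

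As for the markers of cell identity, 1 of 4 claudin-low markers was called lower in each of the last 2 comparisons, beside 5.91% and 5.95% of all tested genes. This was CD44, lower in the plus-ELK3-labelled libraries than with miR-200a (log2 -0.61, adjusted p = 0.0151) and than with the NC mimic (log2 -0.58, adjusted p = 0.0181). AXL did not fall with it, at 756 and 1036 CPM in these libraries, 773 and 760 under miR-200a, and 783 and 794 under the NC mimic. Of the 4 tested luminal markers, 2 were called lower in the plus-ELK3-labelled libraries than with miR-200a, CA12 and GREB1 (log2 -0.67 and -1.84, adjusted p = 0.0155 and 0.0149). Against the NC mimic 1 was called lower, CA12 (log2 -0.69, adjusted p = 0.0135). Most of the luminal sum was CA12, at 176 and 189 CPM under the NC mimic. SPDEF, too low to be tested, had 0 and 1 counts under the NC mimic, 2 and 8 under miR-200a, and 4 and 9 in the plus-ELK3-labelled group. The part of these shifts in the values of the junction genes was not tested.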

How the data were processed

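RNA from MDA-MB-231 was profiled with the QuantSeq 3′ mRNA kit. The authors deposited unnormalized read counts by gene symbol, 1 table a library. The submitters' processing notes name Bowtie2, edgeR and hg19, and the paper names ExDEGA. The counting program, its use of strand and the annotation are not given in the sources used here. Each library has 25737 lines, and the 286 symbols on several lines were summed. Groups came from the sample labels. All 6 libraries were fitted together in R 4.3.3 with edgeR 4.0.16 (TMM, filterByExpr with a minimum count of 10, quasi-likelihood test, 3 residual degrees of freedom), and p-values were adjusted by Benjamini-Hochberg over the 12650 genes tested. Alternatives were DESeq2 1.42.0, upper-quartile normalization, other filters, a model of the 2 groups compared alone, the replicate number as a block, limma 3.58.1 on quantile-normalized log2(count + 1), and each library left out. The fits were tested on simulated data. Members, lists and the rule for naming genes were chosen with earlier results of these data known. By that rule the text gives in full each member called in a comparison and CDH1, gives uncalled members whose groups did not overlap or whose change was among the 3 largest, names each untested member with its counts, and names the called genes of other lists. Positions and 3′UTRs are from GENCODE release 29 (43 of 43 symbols matched), and promoter windows and the miRNA from RefSeq. ExDEGA's results were not used.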

Additional observations from a re-analysis of the deposited data

How the results depend on the processing

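The number of members called depended on the setting, and the cause was not tested except where the setting itself removes libraries or genes. For miR-200a against the NC mimic, 3 members were called, 6 by DESeq2, 9 without the filter on low counts and 13 in a model of those 2 groups alone, where the calls over all genes went from 34 to 999. For the plus-ELK3-labelled libraries against miR-200a, the 12 calls became 3 in the model of 2 groups and 1 by limma. For the same libraries against the NC mimic, the 6 calls became 3 in the model of 2 groups. Leaving out 1 library at a time, where a lone library is assumed to vary like the other groups, gave 0 to 13, 0 to 17 and 0 to 11 calls in the 3 comparisons. Single genes were followed only where a member was called in some comparison, was CDH1, or had groups that did not overlap. Of the 481 values of these genes under the other settings, 421 kept their direction and their side of the threshold. A call was lost in 37 and gained in 23, and none turned in direction. That choice of genes made a turn unlikely from the start, so its absence says nothing of the members left out. Among 378 values with a library left out, 71 lost a call, 34 gained one and 3 turned in direction, all of them small and uncalled. CLDN12 in the plus-ELK3-labelled group against the NC mimic ran from -0.22 to 0.11 on the log2 scale over these fits, with 0.076 without NC mimic replicate 2 and 0.11 without replicate 2 of the plus-ELK3-labelled group, and PKP3 against miR-200a ran from -0.025, without the latter library, to 0.31. DESeq2 gave no adjusted p for CDH1 in any comparison, nor for CDH3, CGN, PPL and ERBB3 between the plus-ELK3-labelled libraries and miR-200a, nor for CGN between them and the NC mimic. The libraries share replicate numbers, and what a number stands for is not stated. Over all tested genes, same-numbered libraries did not deviate together (correlations of -0.003, -0.036 and -0.108). Such a correlation cannot exclude a shared origin that moves only some genes. With the number as a block, 2, 9 and 5 members were called, and with the numbers of the plus-ELK3-labelled group crossed, an alternative chosen after seeing the data, 3, 10 and 5. At 3055915 to 4868004 counts a library, genes with under 3 counts could not be read.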

Other observations

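Among the other epithelial surface and trafficking genes that had too few counts for the test, TMEM30B, a flippase subunit, was picked after its values were seen. It had 7 and 8 counts with miR-200a and none in the other 4 libraries. With a floor of 3 counts over the group, it was 3.88-fold above the floor of the NC mimic. Above the floor of the plus-ELK3-labelled libraries it was 4.36-fold. Both values leave out the counting error of the miR-200a counts and are not lower bounds.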
